A study of Mus musculus with 8 samples.

Results

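The transcripts of 3 families of conjugating enzymes were followed in AML12 cells: the glutathione S-transferases (GST), the UDP-glucuronosyltransferases (UGT) and the sulfotransferases (SULT). A probe was taken as a member when its accession named a cytosolic or mitochondrial GST (Gsta, Gstk, Gstm, Gsto, Gstp, Gstt or Gstz), a microsomal GST (Mgst), a UGT of families 1 and 2, or a SULT. This gave 77 of the 39429 probes of the array, for 56 of the 21612 genes named on it. AML12 is a mouse hepatocyte line derived from the liver of a mouse transgenic for transforming growth factor α. Irisin is a circulating peptide released by cleavage of the membrane protein Fndc5. RNA from 4 samples of AML12 cells cultured with 0.5 µg/ml irisin for 24 h and from 4 samples cultured for the same time without it was measured on 8 one-color Agilent arrays, all in DMEM F-12 medium with fetal bovine serum. The comparison asks which of these transcripts differed after exposure to the peptide. The labels do not say whether the 4 samples of a group were separate cultures, so the p-values measure the spread between samples, which may be technical.

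Phase II metabolism joins a foreign or endogenous compound to a water-soluble group so that it can leave the cell. GST enzymes use glutathione, UGT enzymes in the endoplasmic reticulum use UDP-glucuronic acid, and SULT enzymes in the cytosol use the sulfate donor PAPS. In liver these families handle drugs, carcinogen epoxides, bilirubin, bile acids, steroids and thyroid hormone, and several of their genes are known targets of the factor Nrf2 and of the nuclear receptors CAR and PXR.

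All values below are log2 probe signals with the array's own 75th percentile subtracted, and changes are irisin minus control. A probe was tested when all 4 arrays of either group had it well above background, and called when it changed at least 1.5-fold with a p-value under 0.05 after Benjamini-Hochberg adjustment over all 24093 tested probes (limma). Levels of different probes are not comparable with each other on these arrays. The control arrays were on slide 1 and the irisin arrays on slide 2, so slide and treatment cannot be told apart. The 75th percentile itself was 472 ± 70.1 in control and 783 ± 71.6 in irisin samples (SD, n = 4 each). Between 59.5% and 64.0% of the probes of an array were well above background. The hepatocyte markers were detected for 17 of 19 genes on the array, among them Alb, Ttr, Hnf4a, Krt8 and Krt18, while Cps1 was not. Of 6 genes that mark bile duct and progenitor cells, 4 were detected on all 8 arrays: Krt19, Krt7, Sox9 and Spp1. Prom1 was well above background on no array, and Epcam on 2 irisin arrays only. Of the stellate, endothelial, macrophage and lymphoid lists, Lrat, Pdgfrb, Cdh5, Timd4 and Ms4a1 were below the detection limit throughout, while Col1a1, Col1a2, Acta2, Pecam1, Kdr, Clec4g, Cd68, Csf1r, Marco, Cd3e and Nkg7 had a detected probe on all 8 arrays. Of these, Col1a2, Acta2, Pecam1, Marco and 1 of the Csf1r probes were called lower. A second probe of Kdr and of Nkg7 was well above background on no array, and another Csf1r probe on 1 control and 1 irisin array. By list, in the order above, lower calls were 2 of 3, 1 of 3, 2 of 4 and 0 of 2 tested probes, against 11.7% of all tested probes. Of these 4 lists, 3 of 8, 3 of 6, 3 of 6 and 2 of 5 genes had a probe well above background on all arrays. The linear signals of each list were summed, with the highest probe per gene, so bright genes weigh most. The log2 of this sum, relative to the 75th percentile, spanned −3.17 to −2.66, −0.44 to −0.28, −0.87 to −0.62 and −0.36 to −0.17 in control samples. In irisin samples it spanned −3.72 to −3.39, −1.19 to −0.71, −1.12 to −0.87 and −0.93 to −0.64. That of the hepatocyte list spanned 8.60 to 8.72 in control and 8.35 to 8.55 in irisin samples. Of the 22 tested probes of the hepatocyte list 1, for Tat, was called lower, with a change of −0.77. The part of these lists in the results was not tested, and in such bulk RNA fewer cells of a type and less RNA per cell cannot be told apart.

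Most GST genes, most UGT genes and fewer SULT genes were detected in AML12 cells. Of the 56 genes, 42 had a tested probe, with 58 tested probes in all, and 41 had a probe well above background on all 8 arrays. The other 14 genes had no probe well above background on any array. They were 11 of the 20 SULT genes (Sult1c1, Sult1e1, Sult2a1, Sult2a2, Sult2a3, Sult2a4, Sult2a6, Sult2a7, Sult3a1, Sult3a2 and Sult6b2), the UGT genes Ugt1a6a and Ugt2b1, and Gstt4. Sult1e1 encodes estrogen sulfotransferase, and the Sult2a group sulfates hydroxysteroids and bile acids. Within the Sult2a group 6 of 7 genes were below background, and Sult2a8, a bile acid sulfotransferase of mouse liver, was detected on all 8 arrays. Of the 24 GST genes 23 were tested.

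With the main scaling, the estimated change between control and irisin arrays was under 1.5-fold for nearly all tested member probes. Slide and treatment cannot be told apart, so neither a change nor its absence can be assigned to irisin. No member probe was called higher, where 0.714% of all tested probes were, and 3 of 58 were called lower, where 11.7% of all tested probes were. The 3 were Sult5a1, Sult4a1 and Ugt2a1, all near the lower limit of detection. Of the 58 tested member probes, 45 had a 95% confidence interval that lay wholly within 1.5-fold in both directions, as did 69.8% of all tested probes. At an unadjusted p under 0.05, 3 member probes were higher and 7 lower, against 6.45% and 27.8% of all tested probes. The median change was −0.04 over the member probes and −0.08 over all tested probes. On 57 member probes with a value on every array, the 4 irisin arrays lay above all 4 control arrays for 1 probe and below them for 7, and over the 24023 tested probes with a value on every array this was so for 4.18% and 23.0%. The counts depended on how the arrays were scaled. After quantile normalization 4 were higher and 1 lower, where 2.78% and 4.24% of all tested probes were. After cyclic loess 3 were higher and 1 lower, against 2.9% and 3.84%. When arrays were scaled to spike-in probes 27 were higher and none lower, against 39.3% and 1.29%, and when they were not scaled 46 were higher and none lower, against 61.9% and 0.672%. A normexp background correction gave none higher and 3 lower, against 0.22% and 10.1%. The median of all tested probes moved with the scaling, to 0.01, 0.02, 0.53 and 0.66 in the first 4 of these. The member median lay 0.04 above it in those 4. Spike-in scaling and no scaling shift all probes of an array alike, so there this difference was nearly fixed in advance. The difference was 0.06 with the normexp correction and −0.14 when that correction was fitted on all spots. With 1 array left out it ran from 0.01 to 0.08.

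**Figure D1:**
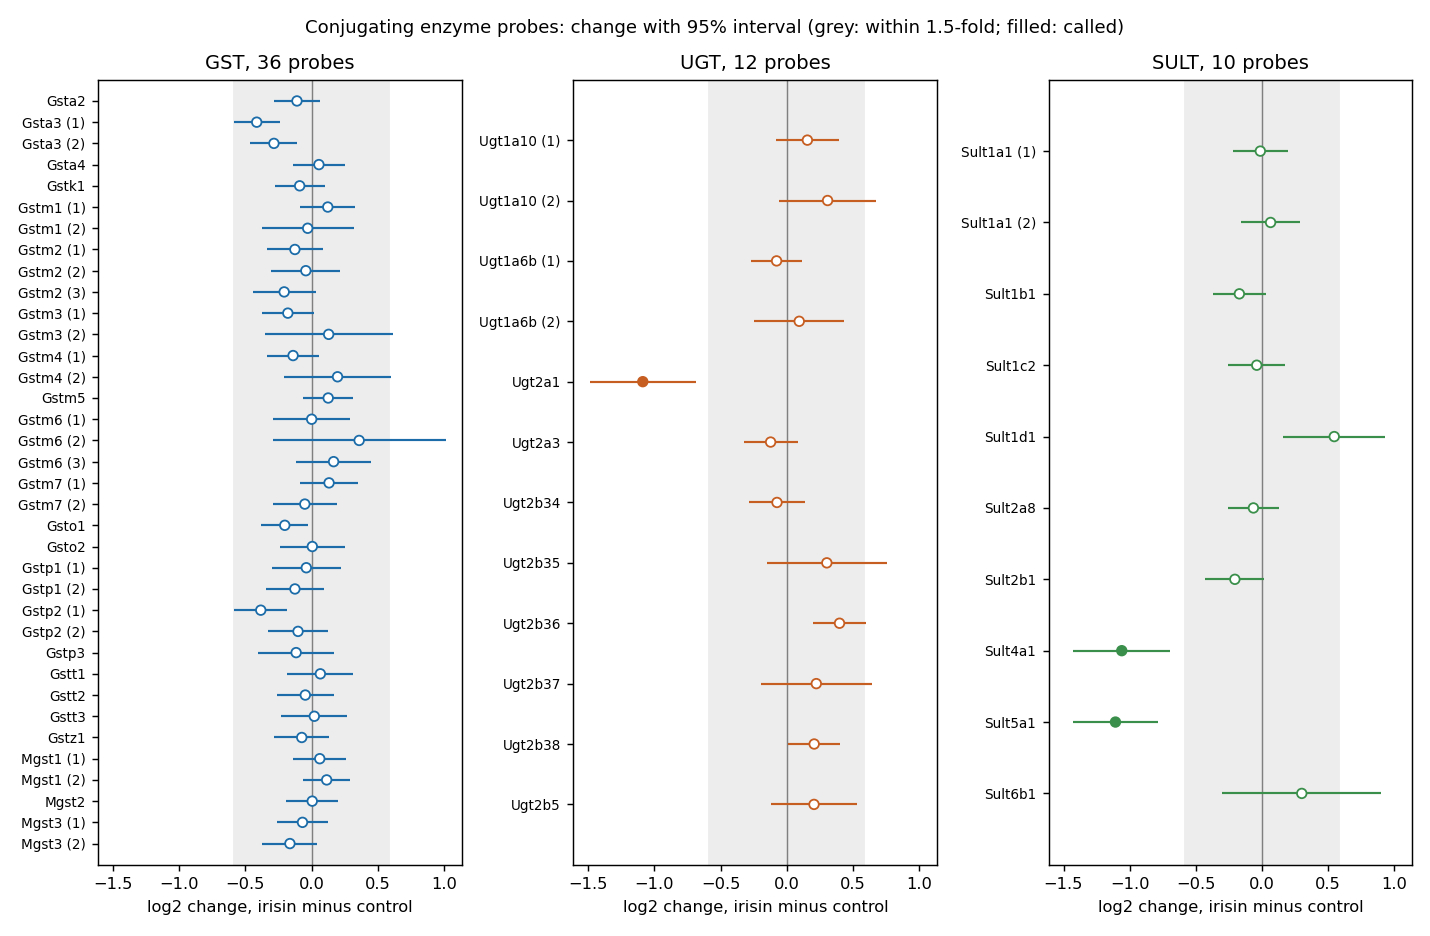
Change of each tested probe of the 3 families (horizontal axis, log2, irisin minus control, with its 95% confidence interval, n = 4 arrays per group); each row is a probe, numbered where a gene has several. Filled points are called and the grey band is 1.5-fold either way. Of the 36 GST intervals 32 lie wholly within the band and the others cross its edge. The intervals of Sult5a1, Sult4a1 and Ugt2a1 lie wholly below it.

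The GST genes were the family most often detected, and none of their 36 tested probes was called. Their changes ran from −0.41 to 0.36 with a median of −0.05, and 32 of the 36 intervals lay within 1.5-fold. The alpha class holds Gsta3, the mouse enzyme known for conjugating the epoxide of aflatoxin, and Gsta4, which conjugates the lipid peroxidation product hydroxynonenal. Gsta3 was measured by a pair of probes. The first read 6.65, 6.50, 6.61 and 6.64 in control and 6.19, 6.28, 6.10 and 6.17 in irisin samples. Every irisin array was below every control array. The change was −0.41 ± 0.08 (SE; adjusted p = 0.0028, limma), or 1.33-fold, short of the 1.5-fold threshold. The second probe read 6.42, 6.23, 6.41 and 6.40 on control and 6.10, 6.16, 6.02 and 6.04 on irisin arrays, again without overlap, with a change of −0.28 ± 0.08 (adjusted p = 0.0245, limma). The size and, in some settings, the sign of these changes depended on the scaling. The pair of changes was −0.08 and 0.04 after quantile normalization and −0.20 and −0.07 after cyclic loess. After the normexp correction it was −0.29 and −0.17 (adjusted p = 0.00695 and 0.108, limma). It was 0.19 and 0.32 when arrays were scaled to spike-in probes, and 0.32 and 0.45 when they were not scaled, where the medians of all tested probes were 0.53 and 0.66.

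Before scaling, the first Gsta3 probe had a mean processed signal of 45780 in control and 56898 in irisin samples. Probes this bright moved down as a group: when all tested probes were split by mean signal into 10 equal bins, the median change was −0.20 in the brightest bin, and −0.10 over the 9 member probes in it. Whether this moved the Gsta3 values was not tested. Gsta4 read −0.46, −0.36, −0.20 and −0.28 on control and −0.24, −0.28, −0.40 and −0.16 on irisin arrays. The groups overlapped, and the change was 0.06 with an interval from −0.14 to 0.25. Gsta2, which acts on organic peroxides, changed by −0.11 (adjusted p = 0.371).

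The pi class, which conjugates small electrophiles and is also known to bind the kinase JNK, has the near-identical genes Gstp1 and Gstp2, so that a probe for one may also take up RNA of the other. The first Gstp2 probe read 6.40, 6.27, 6.31 and 6.44 on control and 5.94, 6.17, 5.88 and 5.90 on irisin arrays. All irisin arrays lay below the control arrays, and the change between group means was −0.38 ± 0.09 (SE; adjusted p = 0.00942, limma). The second Gstp2 probe changed by −0.10 (adjusted p = 0.544) and the Gstp1 probes by −0.04 and −0.13. The first Gstp2 probe was also among the brightest, and its change was −0.07 after quantile normalization and −0.18 after cyclic loess, but 0.23 when scaled to spike-in probes and 0.35 unscaled. Gstp3 changed by −0.12.

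The upstream sequences of Gsta3 and Gstp2 are shown because these are the GST genes with the lowest adjusted p, and that of Gstp1 because it is the neighboring paralog of Gstp2. They are the 130 bases before the transcription start, from the RefSeq promoter table of GRCm38.p6, written on the gene's strand. Capitals mark TGACNNNGC, the core of the antioxidant response element bound by Nrf2, in Gsta3, and TGACTCA read on the other strand, the core of AP-1 and related sites, in Gstp1 and Gstp2.
Gsta3 (chr1:21240455-21240584, plus strand): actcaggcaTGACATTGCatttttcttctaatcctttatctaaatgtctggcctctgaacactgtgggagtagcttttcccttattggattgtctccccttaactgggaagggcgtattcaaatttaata
Gstp1 (chr19:4037913-4038042, minus strand): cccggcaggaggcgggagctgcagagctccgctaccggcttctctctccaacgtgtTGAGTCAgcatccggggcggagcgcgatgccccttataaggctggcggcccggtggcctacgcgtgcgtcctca
Gstp2 (chr19:4042222-4042351, minus strand): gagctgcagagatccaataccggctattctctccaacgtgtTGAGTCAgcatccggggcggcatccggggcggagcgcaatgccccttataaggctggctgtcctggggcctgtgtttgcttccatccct
The match began 121 bases before the start of Gsta3, 74 before that of Gstp1 and 89 before that of Gstp2. Over 250 bases before the start and both strands, TGACTCA was found in 4.46% of the 32851 promoters of the table and in 7 of 61 promoters of 49 member genes. TGACNNNGC was found in 10.2% of all promoters and in 4 of the 61, those of Gsta3, Gstm5, Gstm7 and Mgst1. TGACTCA followed by GC counts for both motifs. The 250 bases of Gstp1 and Gstp2 were identical at 207 of 265 aligned positions. A match is only a description of the letters.

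The mu class, with 7 genes on chromosome 3 and 15 tested probes, acts on epoxides and quinones. No mu probe had an adjusted p under 0.05. The changes were 0.12 and −0.03 for Gstm1, −0.13, −0.04 and −0.21 for Gstm2, −0.18 and 0.13 for Gstm3, −0.14 and 0.20 for Gstm4, and 0.13 for Gstm5. They were 0.00, 0.17 and 0.36 for Gstm6 and 0.13 and −0.05 for Gstm7. The genes of this class are close paralogs, and the probes of Gstm1, Gstm3, Gstm4 and Gstm7 differed from each other in sign, none of them with an adjusted p under 0.05. The highest value, 0.36 for Gstm6, came from a probe that was well above background on 2 of 4 control arrays and had an interval from −0.29 to 1.01.

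The remaining GST classes stayed close to control. Gsto1, which reduces dehydroascorbate and arsenic species, read 5.79, 5.78, 5.81 and 5.72 on control and 5.47, 5.71, 5.52 and 5.59 on irisin arrays. The groups did not overlap, and the change of −0.20 (interval −0.38 to −0.02) did not pass the adjustment (adjusted p = 0.0986). With quantile normalization it was 0.05. Gsto2 changed by 0.01, the mitochondrial and peroxisomal Gstk1 by −0.09, and Gstz1, the maleylacetoacetate isomerase of tyrosine breakdown, by −0.07. The theta enzymes Gstt1, Gstt2 and Gstt3, which act on halogenated hydrocarbons, changed by 0.07, −0.05 and 0.02. The microsomal enzymes are membrane proteins of a separate evolutionary origin. Mgst1, known for protecting membranes from lipid peroxides, changed by 0.06 and 0.11, Mgst2, which can make leukotriene C4, by 0.00, and Mgst3 by −0.07 and −0.16. The first Mgst1 probe had no value on irisin array 4, where its spot was marked, and was fitted on the other 7 arrays. All 5 microsomal intervals lay within 1.5-fold.

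**Figure D2:**
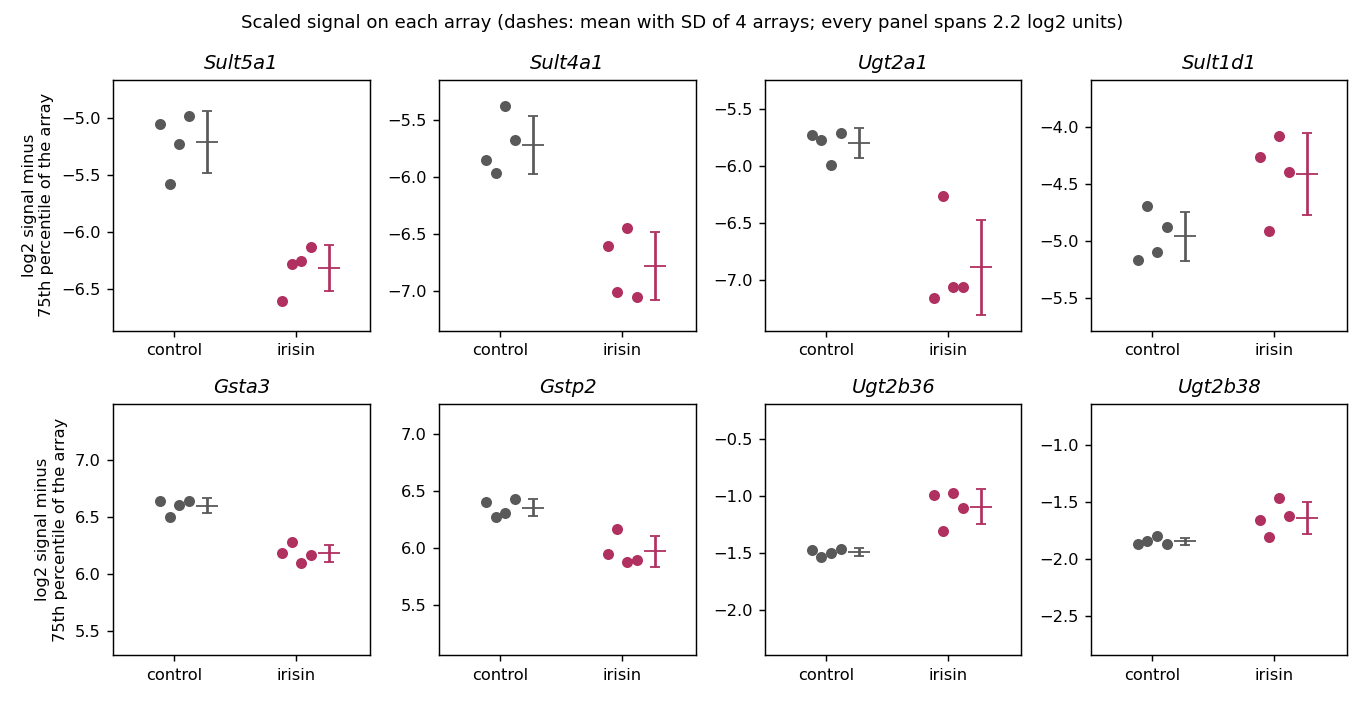
Scaled log2 signal of 8 probes on each of the 4 control and 4 irisin arrays (points), with the mean and SD of each group. Every panel spans the same range, so the distances compare. Irisin arrays lie below the control arrays for Sult5a1, Sult4a1, Ugt2a1, Gsta3 and Gstp2 and above them for Ugt2b36, and the groups overlap for Sult1d1 and Ugt2b38.

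The UGT family held the one member probe whose irisin arrays all lay above the control arrays. Ugt2b36 belongs to the Ugt2b cluster on chromosome 5, whose enzymes glucuronidate steroids, bile acids and many drugs. It read −1.47, −1.54, −1.49 and −1.46 on control and −0.99, −1.30, −0.97 and −1.11 on irisin arrays. The change was 0.40 ± 0.09 (SE; adjusted p = 0.00796, limma; exact two-sided permutation p = 0.0286, the smallest that 70 assignments allow), or 1.32-fold, and so was not called. It was 0.39 after quantile normalization, 0.42 after cyclic loess and 0.37 after a normexp background correction. Scaled to spike-in probes it was 1.01, and unscaled 1.14. Its processed signal averaged 168 on control and 371 on irisin arrays, well clear of the negative control spots at about 1.00.

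Other Ugt2b probes had changes of the same sign that did not pass the test. Ugt2b38 read −1.87, −1.84, −1.80 and −1.87 on control and −1.66, −1.81, −1.47 and −1.62 on irisin arrays, with an overlap at 1 irisin array and a change of 0.21 ± 0.09 (adjusted p = 0.121). Ugt2b5 had 0.21 (adjusted p = 0.373), Ugt2b37 0.22 (0.464) and Ugt2b35 0.30 (0.344). Ugt2b34 had −0.07 (0.65). Ugt2b1 and the second probe of Ugt2b35 were below the detection limit throughout. The dim probes of this group depended on the background correction: with the normexp correction Ugt2b35, Ugt2b37 and Ugt2b5 had −0.46, −0.38 and −0.34, and Ugt2b38 had −0.01. With quantile normalization the same probes had 0.74, 0.64, 0.51 and 0.21, and Ugt2b35 and Ugt2b37 were called higher.

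Irisin array 2 was the lowest of the 4 irisin arrays for all 6 tested Ugt2b probes, as it was for 23.4% of all tested probes. Leaving it out raised the number of all tested probes called higher from 172 to 335. The array was singled out because it was the lowest, so leaving it out had to raise these changes, and nothing is read from the values without it. Over the 8 fits that each left out 1 array, the adjusted p ran from 0.00144 to 0.0262 for Ugt2b36 (limma). It ran from 0.0482 to 0.687 for Ugt2b35, from 0.0471 to 0.788 for Ugt2b37, from 0.0176 to 0.652 for Ugt2b5 and from 0.0298 to 0.300 for Ugt2b38 (limma), the lowest each time without irisin array 2. These genes are close paralogs, and a probe for one may take up RNA of another, so their values are not independent.

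The upstream sequences of Ugt2b36 and of 3 neighbors with changes of the same sign are shown because they share a stretch close to the start. They are the 100 bases before the start from the same table, and capitals mark AGGTCA, the half-site of many nuclear receptors.
Ugt2b36 (chr5:87092556-87092655, minus strand): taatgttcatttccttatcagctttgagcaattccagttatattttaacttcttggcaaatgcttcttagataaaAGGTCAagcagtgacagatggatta
Ugt2b5 (chr5:87140341-87140440, minus strand): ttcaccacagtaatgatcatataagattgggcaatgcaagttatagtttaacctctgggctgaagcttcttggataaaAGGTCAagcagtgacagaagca
Ugt2b37 (chr5:87254789-87254888, minus strand): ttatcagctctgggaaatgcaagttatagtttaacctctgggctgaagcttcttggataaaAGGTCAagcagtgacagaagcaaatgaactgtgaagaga
Ugt2b38 (chr5:87424204-87424303, minus strand): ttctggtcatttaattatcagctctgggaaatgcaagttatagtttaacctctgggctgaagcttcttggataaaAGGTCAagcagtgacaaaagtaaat
The match began 25 bases before the start of Ugt2b36 and Ugt2b38, 22 before that of Ugt2b5 and 39 before that of Ugt2b37, inside a run that the 4 genes share. Ugt2b35, whose change of 0.30 had the same sign, had no match in its last 100 bases. Over 250 bases and both strands, AGGTCA was found in 14.0% of all promoters and in 9 of the 61 member promoters, that of Ugt2b35 among them. Over those 250 bases Ugt2b36 was identical to Ugt2b5 at 160 of 270 aligned positions and to Ugt2b38 at 158 of 263, and Ugt2b37 and Ugt2b38 to each other at 224 of 264. A shared stretch was not tied to a change by any test.

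Ugt2a1, an enzyme best known from the nasal epithelium, lies in the same cluster and had the lowest value of the family. It read −5.73, −5.77, −5.99 and −5.71 on control and −7.16, −6.27, −7.07 and −7.06 on irisin arrays. All irisin arrays were lower, array 2 by the least, and the probe was well above background on 3 of these 4. The change was −1.09 ± 0.18 (SE; adjusted p = 0.00129, limma), or 2.13-fold, and Ugt2a1 was called lower. It was tested only because of the control arrays, and drops out of the test when all 8 arrays must be well above background, which leaves Sult5a1 and Sult4a1 as the lower calls. Ugt2a3, which glucuronidates bile acids, changed by −0.12. Ugt1a genes share their later exons, so that a probe there cannot tell one from another. The Ugt1a6b probes, for the enzyme of planar phenols, changed by −0.08 and 0.09. The Ugt1a10 probes changed by 0.16 and 0.31, the latter with 3 of 4 control arrays well above background. It was 0.82 and called higher with quantile normalization and −0.46 with the normexp correction.

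**Figure D3:**
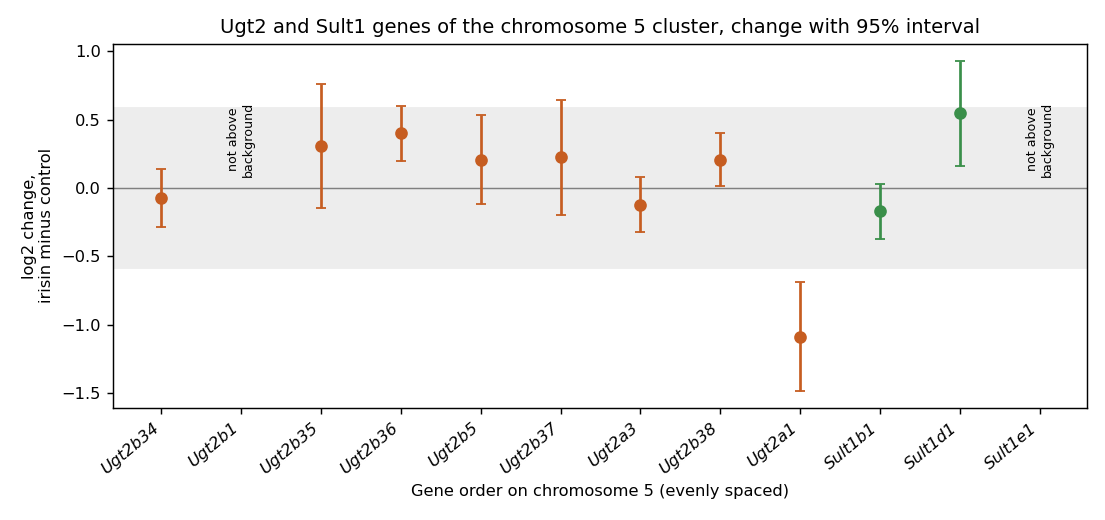
Change of the Ugt2 and Sult1 genes in their order along chromosome 5 (evenly spaced, not to distance), with 95% confidence intervals from 4 arrays per group and a grey band at 1.5-fold. Ugt2b36, Ugt2b38 and Sult1d1 have intervals above 0, Ugt2a1 lies below the band, and Ugt2b1 and Sult1e1 were not above background. The intervals are not adjusted, and Ugt2b38 had an adjusted p of 0.121 (limma).

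Of the sulfotransferases 10 probes were tested, and 2 of them were called lower, where 11.7% of all tested probes were. Sult5a1, a mouse gene with no well-known substrate, read −5.05, −5.58, −5.23 and −4.98 on control and −6.61, −6.28, −6.26 and −6.14 on irisin arrays. The groups were clearly apart, with a change of −1.11 ± 0.15 (SE; adjusted p = 0.000367, limma), or 2.15-fold. Sult4a1, a protein known from brain, read −5.85, −5.96, −5.38 and −5.67 on control and −6.60, −7.00, −6.44 and −7.05 on irisin arrays. These did not overlap either, and the change was −1.06 ± 0.16 (SE; adjusted p = 0.000905, limma), or 2.08-fold. The second Sult4a1 probe was below the detection limit throughout.

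The 3 called probes were dim, in a range where lower calls were common among all tested probes. In the dimmest of the 10 bins of mean signal, which holds Sult4a1, Ugt2a1 and 2 other member probes, 45.2% of all probes were called lower and the median change was −0.51. In the next bin, which holds Sult5a1 and 5 other member probes, these were 34.3% and −0.33. Across the upper 5 bins, with 33 member probes, between 0.208% and 2.24% were called lower, and no member probe was. Before scaling, Sult5a1 had a processed signal of 12.8 on average on control and 9.88 on irisin arrays, Sult4a1 9.21 and 7.29, and Ugt2a1 8.45 and 6.70. The negative control spots had 0.992 and 1.00. Relative to the 75th percentile, which was higher by 0.74 on the log2 scale on the irisin arrays, the negative control spots themselves fell by 0.72. The part of the background in these falls was not tested. The size of the fall, and with one background correction its sign, depended on the processing. Sult5a1 had −0.66 after quantile normalization, −0.65 after cyclic loess, −0.67 after the normexp correction, −0.50 when scaled to spike-in probes and −0.37 unscaled. Sult4a1 had −0.54, −0.56, −0.64, −0.45 and −0.32 in the same order, and Ugt2a1 −0.54, −0.58, −0.62, −0.48 and −0.35. Of these 5 settings the normexp correction called all 3, quantile normalization and cyclic loess called Sult5a1 alone, and the last 2 called none. The normexp values here leave out 18 spots of high local background, a choice made after seeing the data. With normexp on all spots the changes were 0.36 for Sult5a1, 0.44 for Sult4a1 and 0.47 for Ugt2a1 (adjusted p = 0.673, 0.649 and 0.649, limma), in a fit that called none of all tested probes in either direction.

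**Figure D4:**
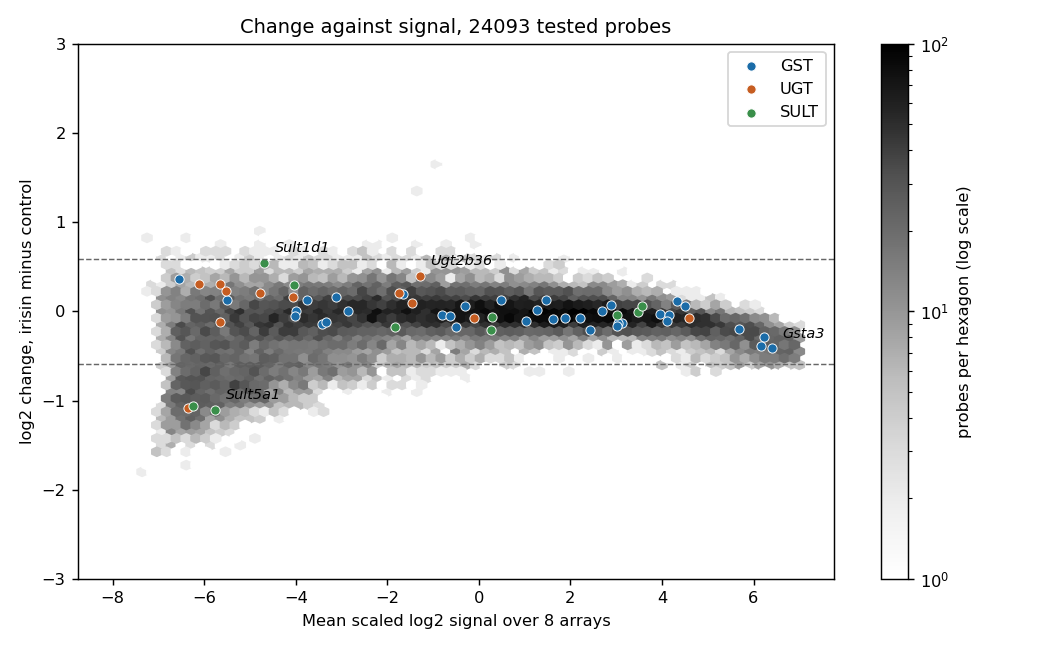
Change (vertical axis, log2, irisin minus control) against mean scaled log2 signal over 8 arrays (horizontal axis) for all 24093 tested probes (hexagons, shaded by number) and the 58 member probes (colored points, by family). Dashed lines mark 1.5-fold. Dim probes spread downwards, with a median of −0.51 in the dimmest of 10 bins, and the brightest bin has a median of −0.20; the called Sult5a1 lies in the first region and Gsta3 in the second.

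Sult1d1, which sulfates catecholamines, was the SULT gene with the largest increase. The probe that was tested read −5.17, −4.69, −5.09 and −4.88 on control and −4.26, −4.91, −4.08 and −4.39 on irisin arrays. Irisin array 2 fell among the control arrays, and the other 3 were above them. The change was 0.55 ± 0.17 (SE; adjusted p = 0.0421, limma; exact permutation p = 0.0857), or 1.46-fold, just under the threshold. Without irisin array 2 it was 0.71 and called, and it was also called without control array 2. These were the lowest irisin and the highest control array for this probe. Leaving out either had to raise the change, so nothing is read from these calls. Without any one of the other 6 arrays the adjusted p lay between 0.0696 and 0.121 (limma), and it was 0.0775 with the replicate block and 0.128 with the methods' test. It was 0.84 after quantile normalization, 0.86 after cyclic loess and −0.30 after the normexp correction, so that its direction depended on how the background was treated. The second Sult1d1 probe was well above background on 2 of the 8 arrays and was not tested.

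The other sulfotransferases had values near 0. Sult1a1, the main phenol sulfotransferase of liver, changed by −0.01 and 0.07 and Sult1c2 by −0.04. Sult1b1, which acts on thyroid hormone, changed by −0.17, and Sult2b1, which sulfates cholesterol and pregnenolone, by −0.20. Sult6b1 had 0.30 with a wide interval from −0.30 to 0.90, since irisin array 1 read −2.95 and the other irisin arrays lay between −4.39 and −3.92. Sult2a8 read 0.27, 0.27, 0.31 and 0.41 on control and 0.24, 0.10, 0.39 and 0.27 on irisin arrays. These overlapped, and the change was −0.06 with an interval from −0.26 to 0.13. Sult1e1 was below the detection limit throughout, and no fold is given for it.

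**Figure D5:**
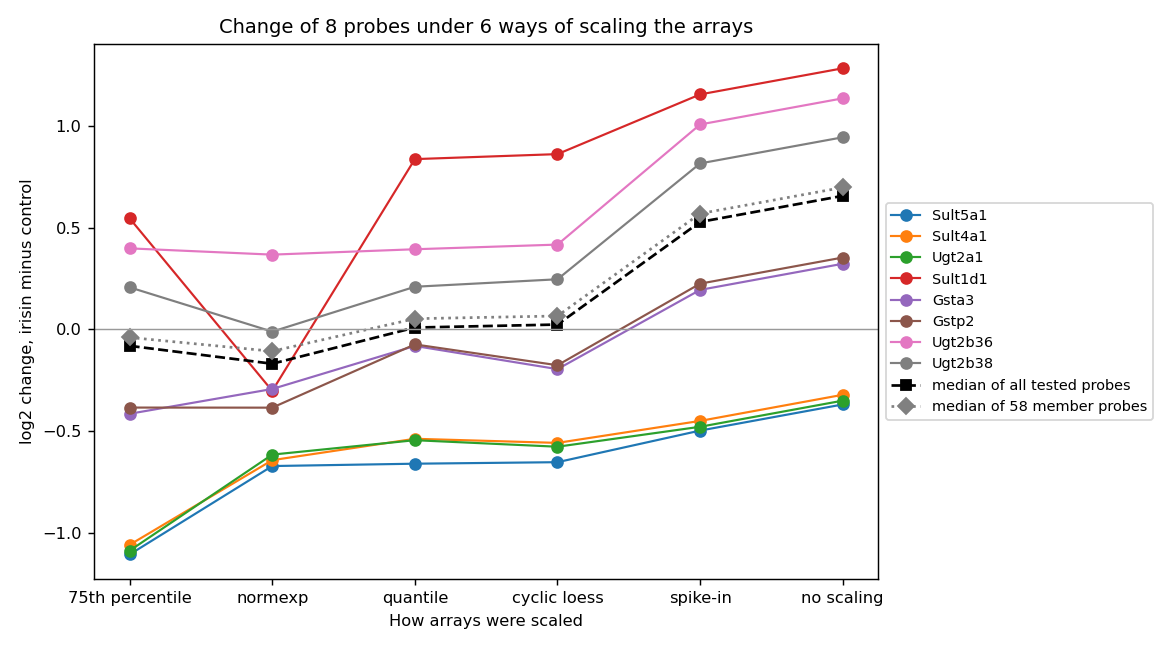
Change (log2, irisin minus control) of 8 member probes under 6 ways of scaling the arrays, with the median of all tested probes (dashed) and of the 58 member probes (dotted). Sult5a1, Sult4a1 and Ugt2a1 are lowest and Ugt2b36 is above 0 in each of these 6, Sult1d1 turns below 0 with the normexp correction, and Gsta3 and Gstp2 turn above 0 with spike-in scaling and no scaling, where the medians are 0.53 or more.

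Genes that supply, regulate or work beside these enzymes were examined as partner genes. Of 78 such genes 76 had a named probe, and of their 89 tested probes 2 were called higher and 4 lower, where 0.714% and 11.7% of all tested probes were, with a median change of −0.01. The suppliers of UDP-glucuronic acid and PAPS gave 1 higher of 10 probes, and glutathione supply and mercapturate steps gave 1 lower of 20. The other conjugating enzymes gave 3 lower of 22. None of the 10 probes for conjugate exporters or the 5 for enzymes that remove conjugates was called.

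In the PAPS pathway Bpnt1, the phosphatase that clears the by-product of sulfation, had the largest increase. One probe read −1.14, −1.37, −1.31 and −0.89 on control and −0.36, 0.02, −0.70 and −0.64 on irisin arrays. It rose by 0.76 ± 0.17 (SE; adjusted p = 0.00639, limma) without overlap, and the second Bpnt1 probe had 0.09 (adjusted p = 0.618). The change of the first was 0.75 after quantile normalization, 0.76 after cyclic loess and 0.51, not called, after the normexp correction. Among the lower calls, Ugt3a2 and Ugt3a1, enzymes of a related UGT family, had −1.22 and −1.03, and both were called with quantile normalization (−0.72 and −0.62), cyclic loess (−0.73 and −0.60) and the normexp correction (−0.61 and −0.70). The second Ugt3a2 probe was not well above background. Dpep1, a dipeptidase of the mercapturate route, had −0.89, and Slc27a5, the bile acid CoA ligase, −0.59. Dpep1 was well above background on 3 of 4 irisin arrays, and so was tested only through the control arrays. The Slc27a5 groups overlapped (exact permutation p = 0.0571), and the second probe of this gene was well above background on no array. Neither Dpep1 nor Slc27a5 was called with quantile normalization (−0.34 and −0.13) or cyclic loess (−0.37 and −0.12). With the normexp correction Dpep1 was called (−0.67) and Slc27a5 was not (−0.58). All 4 lower calls were dim, with group means below −5 on the log2 scale, where lower calls were common among all probes.

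Of the 22 tested probes for regulators of these genes 1 was called, a dim probe of Ahr. Nfe2l2, which encodes Nrf2, read between 4.41 and 4.64 on control and between 4.44 and 4.63 on irisin arrays, with a change of −0.01. Keap1, its inhibitor, had −0.17 (adjusted p = 0.444) and Nr1i2, which encodes PXR, 0.17 (adjusted p = 0.429). Nr1i3, which encodes CAR, was well above background on 1 of 8 arrays with one probe and on none with the other, and was not tested. Ahr, the receptor for dioxin-like ligands, had 0.10 (adjusted p = 0.597) with its brighter probe. A second Ahr probe was well above background on all 4 irisin arrays and on no control array, and so was tested only through the irisin arrays. Its fitted change was 0.79 (adjusted p = 0.0128, limma). Its irisin mean of −6.90 lay 1.16-fold above −7.11, the control mean of the lowest signal well above background on each array. Irisin arrays 1 and 4 read −7.12, and this difference was not tested. With the normexp correction the change of this probe was −0.48, so 1.16-fold is no lower bound across settings.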

How the data were processed

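RNA of 8 AML12 samples was measured on one-color Agilent arrays. The authors labeled it with Cy3, and deposited linear signal intensity from Feature Extraction 12.0.3.1 and in a value table, with background subtracted and without normalization between arrays. Marked spots (at most 0.463% of an array) were left out, the spots of a probe averaged, and each array scaled to its 75th percentile before log2 values were compared. Accessions were looked up in RefSeq's GRCm38.p6 table to name probes. The mm9 positions in the files are not printed; upstream stretches carry GRCm38.p6 positions from the RefSeq promoter table.

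Groups, dose and time came from the labels. All tested probes were fitted with limma 3.58.1 in R 4.3.3. Single probes were also tested by an exact two-sided permutation test. Tables and figures were made with Python 3.11.15, pandas 2.3.3 and matplotlib 3.10.9, and promoters aligned with biopython 1.88. The fit was tested on simulated arrays of this comparison: of 100 probes changed by a log2 of 1, 91% were recovered among 24093, with 6 false calls in all. Simulated probes were drawn independently, without a difference between slides or a shift with signal. The number of false calls in the real arrays therefore cannot be read from it.

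Named are the genes with a called probe, the members well above background on all 8 arrays, the members whose mRNA the study names (Gsta4, Sult1e1 and Sult2a8), called partner genes and 5 regulators. Members and lists were chosen with earlier results of these data known. The alternatives were the value table, other scalings, normexp (offset 50), filters, an intensity trend, the replicate block, the methods' test and each array left out. Normexp on all spots failed on irisin arrays 2 and 4, and a fit without 18 spots of high local background was added after seeing the data. Except where stated, normexp means this fit. The number of arrays limits the precision.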

Additional observations from a re-analysis of the deposited data

Results flagged for a closer look

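Single arrays stood far from the other 3 of their group in 5 of 115 groups of member probes, 4.35%, where chance flags about 1 in 20. The second Ugt1a10 probe read −6.81 on control array 4 against −6.10 to −6.05 on the others, and its change was 0.12 without that array and 0.31 with it. Ugt2a1 read −6.27 on irisin array 2 against −7.16 to −7.06, and its change was −1.30 without it. The second Gsta3 probe read 6.23 on control array 2 against 6.40 to 6.42, with a change of −0.33 without it. A Gstp1 probe read 3.93 on irisin array 1 against 4.19 to 4.24, and Gstt2 −0.84 on irisin array 3 against −0.62 to −0.58. Without those arrays the changes were 0.03 and 0.01.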

How the results depend on the processing

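Leaving out 1 array at a time gave 0 to 1 member probes called higher and 3 lower, 2 to 3 partner probes higher and 3 to 5 lower, and a member median between −0.070 and 0.0099. The 1 higher member probe was Sult1d1, without control or irisin array 2. Of all 24093 tested probes, 102 to 335 were called higher and 2632 to 3052 lower in these fits. The value table, the intensity trend, the stricter filter (2 lower) and the methods' test, a plain ANOVA per probe, left the member counts within 1.5 times.

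With no scaling, spike-in scaling, quantile normalization and cyclic loess, member probes called higher were 46, 27, 4 and 3, and called lower 0, 0, 1 and 1. Partner probes called higher were 68, 51, 4 and 4, and called lower 0, 1, 2 and 2. The member medians were 0.70, 0.57, 0.053 and 0.066. In the first and second, reversals were 0.32 and 0.19 for the first Gsta3 probe, 0.45 and 0.32 for the second, 0.35 and 0.23 for Gstp2, and 0.67 and 0.55 for Sult2a8. The second Gsta3 probe was also reversed with quantile normalization, at 0.036.

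Normexp on all spots called no member or partner probe in either direction (0 of 24093 tested) and turned Sult4a1 to 0.44, Sult5a1 to 0.36 and Ugt2a1 to 0.47. Without the 18 spots it called 0 partner probes higher, gave a member median of −0.11 and turned Sult1d1 to −0.30. With no filter, 17 of 77 member probes and 11 partner probes were lower, where 12750 of all 39429 probes were. The members among them included genes with no probe well above background on any array. The adjusted p alone gave 2 member probes higher and 6 lower and 10 partner probes lower. Of all 24093 tested probes it gave 713 higher and 5197 lower. The stricter filter and the methods' test each gave 1 partner probe higher.

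Samples that share a replicate number did not deviate together (r = 0.11, −0.35, −0.13 and 0.17 for numbers 1 to 4). The replicate block gave 0 member probes higher, 3 lower and a median of −0.04. The causes of these shifts were not tested. Signal near background limits the dim probes, and the number of arrays limits the rest.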
